A study of Mus musculus with 8 samples.

Results

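How far the effect of losing Rictor depended on the lineage of a memory CD4 T cell was measured gene by gene. For each gene, the difference between Rictor-null and wild-type (WT) T helper 1 (Th1) cells was subtracted from the same difference in T follicular helper (Tfh) cells, on a log2 scale. This value, the interaction, is positive where Rictor loss moved a gene further up, or less far down, in Tfh cells than in Th1 cells, and negative where the reverse held. The array table named 18193 genes, of which 11217 were bright enough to test. The interaction passed the test (limma, Benjamini-Hochberg adjusted p under 0.05) for 136 genes, 1.21% of those tested, which are termed called genes. It was positive for 92 of them (0.82% of genes tested) and negative for 44 (0.392%).

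The cells were polyclonal memory CD4 T cells taken from spleen at day 60 of infection with LCMV Armstrong, a virus strain that mice clear as an acute infection. There were 4 groups of 2 arrays: Rictor-null Tfh, WT Tfh, Rictor-null Th1 and WT Th1. All groups shared the infection and the time point. RNA on each array (labelled from 100 ng of total RNA) was pooled from at least 10 mice, so the spread between arrays of a group is that between pools, not between animals. The allele, the part of Rictor removed, the driver of any Cre, the sort gates, and the age and sex of the mice are not stated in the sources used here. In sorted bulk samples, a change in the share of a cell subset and a change of RNA per cell cannot be told apart.

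Rictor gives mTOR complex 2 its identity; this kinase phosphorylates AKT and so restrains the FOXO transcription factors. Tfh cells depend on the repressor BCL6, carry the chemokine receptor CXCR5 and help B cells make antibody. Th1 cells depend on T-bet, encoded by Tbx21, and make interferon gamma. AKT and FOXO signalling bears on homing, survival and effector genes in both lineages.

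The arrays had medians of 35.7 to 37.7 on the deposited signal scale. Each array lay closest to the other array of its group (Pearson r of 0.995 to 0.999 across genes, which are not independent replicates). Replicate 2 of Rictor-null Tfh and replicate 1 of WT Th1 stood apart from the other arrays on the third principal component (-12.4 and -6.49). The other replicates of these groups lay at 1.09 and -0.599. WT Tfh arrays lay higher, at 5.1 and 2.84, as did Rictor-null Th1 arrays, at 3.96 and 6.47. This component thus separates the groups as the interaction does, and the replicates that differ most along it belong to Rictor-null Tfh and WT Th1. The median SD between replicates over genes was 0.0661 log2 for Rictor-null Tfh arrays, 0.033 for WT Tfh arrays, 0.046 for Rictor-null Th1 arrays and 0.0466 for WT Th1 arrays. Without both arrays that stood apart, 160 genes were called, 106 of them among the 136. Cd3d, Cd3e, Cd3g and Cd4 were bright on all arrays, while Cxcr5 read 179 to 297 on the Tfh arrays and 46.8 to 55.7 on the Th1 arrays. Rictor itself gave an interaction of 0.09 ± 0.105 (SE, n = 2 arrays per group, adjusted p = 0.644) on its brightest probe set. Since its probes may lie outside the deleted part, these signals do not check the genotype labels.

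The called genes fell into 4 patterns, according to the lineage in which the genotype effect itself passed the test. Over all genes tested, that effect passed for 13.6% in Tfh cells and 10.5% in Th1 cells. It was a rise for 1269 genes and a fall for 259 in Tfh cells, and a rise for 847 and a fall for 333 in Th1 cells. The genotype effect passed in both lineages in the same direction, but with unequal size, for 23 called genes. It passed in opposite directions for 29, in Tfh cells alone for 45, and in Th1 cells alone for 39. No called gene lacked a passing effect in both lineages. The patterns use the same arrays as the interaction and are a description of it. Of the 29 genes with opposite effects, 26 rose in Rictor-null Tfh and fell in Rictor-null Th1 cells. Of the 45 that passed in Tfh cells alone, 38 had a positive interaction, and their median genotype effect was 0.40 in Tfh and -0.13 in Th1 cells. Of the 39 that passed in Th1 cells alone, 22 had a negative interaction, with medians of -0.14 in Tfh and 0.53 in Th1 cells. The median interaction over all genes tested was 0.04. Of the 136 genes, 8 lay above the array median on just the 2 arrays of 1 group, and so entered the test only through the group in which they were high. Both Rictor-null arrays lay on the same side of both WT arrays, in each lineage, for 116 of the 136 genes. The share over all genes tested was not counted. These genes were selected on the same arrays, so the 116 is a description and lends the calls no weight.

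**Figure D1:**
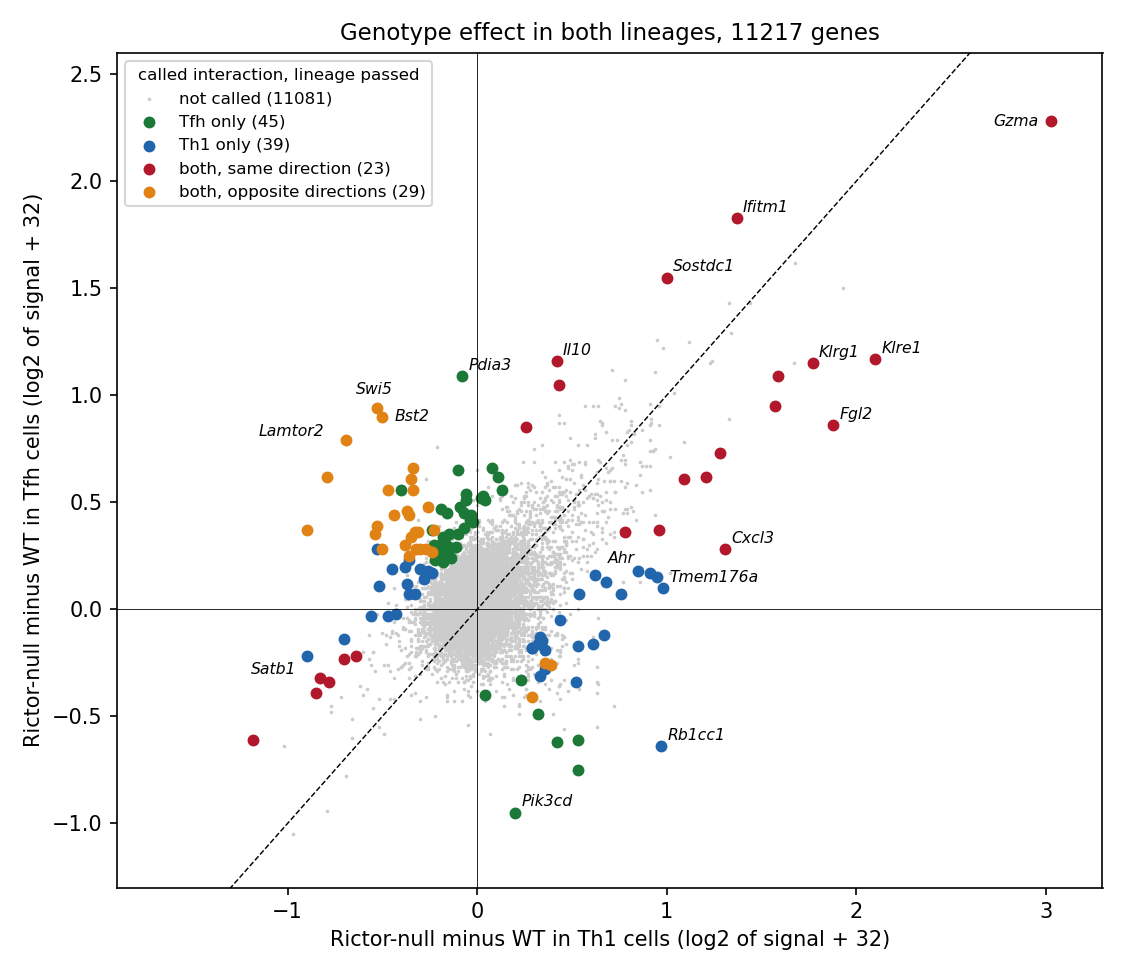
Genotype effect in Th1 cells (horizontal axis) against that in Tfh cells (vertical axis), both as the difference in mean log2 of signal plus 32 between 2 Rictor-null and 2 WT arrays, for 11217 genes. Colours mark the 136 genes with a called interaction by the lineage in which the effect passed, and the dashed line is an equal effect in both lineages: Gzma, Klre1 and Fgl2 lie to its right among genes that rose in both, and 26 genes lie at the upper left, having risen in Tfh and fallen in Th1 cells.

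Loss of Rictor raised 12 of the called genes in both lineages and further in Th1 cells, among them Gzma, Gzmb, Klre1, Klrg1 and S1pr5, which cytotoxic or late effector lymphocytes express. Their median rise was 0.80 log2 in Tfh and 1.44 in Th1 cells. Gzma, the granule protease granzyme A, had the largest rises. It read 1633 and 1472 on the Rictor-null Tfh arrays, 300 and 288 on the WT Tfh arrays, 980 and 998 on the Rictor-null Th1 arrays, and 99.1 and 87.8 on the WT Th1 arrays. Both WT Th1 arrays were the lowest of the 8, and in each genotype Tfh cells read higher than Th1 cells. The rise was 2.28 log2 in Tfh and 3.03 in Th1 cells, an interaction of -0.75 ± 0.0973 (SE, n = 2 arrays per group, adjusted p = 0.00499). The call ended without WT Tfh replicate 1 (adjusted p = 0.0506) and with a pseudocount 4 times larger (0.0804). Its adjusted p was 0.193 in an ordinary linear model and under 0.05 in its other 19 alternatives.

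Klre1, a lectin-like receptor of the NK gene complex, read 106 and 105 on the Rictor-null Tfh arrays, 26.3 and 32 on the WT Tfh arrays, 138 and 166 on the Rictor-null Th1 arrays, and 12.2 and 9.61 on the WT Th1 arrays. The order of the lineages thus differed by genotype: Th1 cells read lowest among WT and highest among Rictor-null arrays, with no overlap, though all 4 WT values lie below the array medians. Its interaction of -0.93 ± 0.111 (adjusted p = 0.00378) is thus a description of a gene that the filter admitted on Rictor-null arrays alone. Klrg1, an inhibitory lectin-like receptor of late effector cells, rose by 1.15 in Tfh and 1.77 in Th1 cells (interaction -0.62 ± 0.0999, adjusted p = 0.0165). Gzmb, which encodes granzyme B, had an interaction of -0.55 ± 0.0848 (adjusted p = 0.0138). For S1pr5, a sphingosine phosphate receptor of circulating effector cells, it was -0.50 ± 0.0936 (adjusted p = 0.0305). Rictor-null cells of both lineages had similar Klrg1 signals, 329 to 374, while WT Tfh cells (142 and 140) lay above WT Th1 cells (82.6 and 80.5). The Klrg1 call ended without any of 4 arrays, both WT Tfh arrays, Rictor-null Th1 replicate 2 and WT Th1 replicate 2 (highest adjusted p = 0.111), that of Gzmb without any of these or Rictor-null Th1 replicate 1 (0.0954), and that of S1pr5 without any array except Rictor-null Tfh replicate 1 (0.179).

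Like Klre1, the genes Fgl2, Cxcl3 and Ccr9 of this group were below the array medians in WT cells of both lineages. They entered the test only through Rictor-null arrays, on which they were high, so their interactions and calls are a description. Fgl2, a secreted fibrinogen-like protein with immunosuppressive activity, read 57.1 and 48.3 on the Rictor-null Tfh arrays, 14 and 14.8 on the WT Tfh arrays, 143 and 174 on the Rictor-null Th1 arrays, and 17.6 and 21.4 on the WT Th1 arrays. All 4 Rictor-null arrays lay above all WT arrays, those of Th1 cells highest. The interaction was -1.02 ± 0.118 (adjusted p = 0.00367). Cxcl3, a neutrophil-attracting chemokine, read 56.4 and 54.9 on the Rictor-null Th1 arrays, 10 and 10.5 on the Rictor-null Tfh arrays, and 2.55 to 3.45 on the WT arrays. It entered the test through the Rictor-null Th1 arrays alone, the only ones above their median, so its interaction of -1.03 ± 0.0753 (adjusted p = 0.000379) is a description of a gene that the filter admitted where it was high. Its rise in Tfh cells rests on values below the median. Ccr9, a gut-homing chemokine receptor, rose by 0.95 in Tfh and 1.57 in Th1 cells, and both of its measured probe sets, those that passed the filter on dim signals, were called (-0.61 and -0.60). Its 3 probe sets below the filter gave -0.10, 0.02 and -0.23. Without either WT Tfh array or Rictor-null Th1 replicate 1 the Ccr9 call ended (highest adjusted p = 0.0621). Socs2, a feedback inhibitor of cytokine signalling chosen after its values were seen, was brighter and had an interaction of -0.60, which passed in 3 of 8 fits that each left out 1 array. Of its 2 other measured probe sets, 1 passed, with -0.74. Other probe sets of a gene are given only where they passed the filter.

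**Figure D2:**
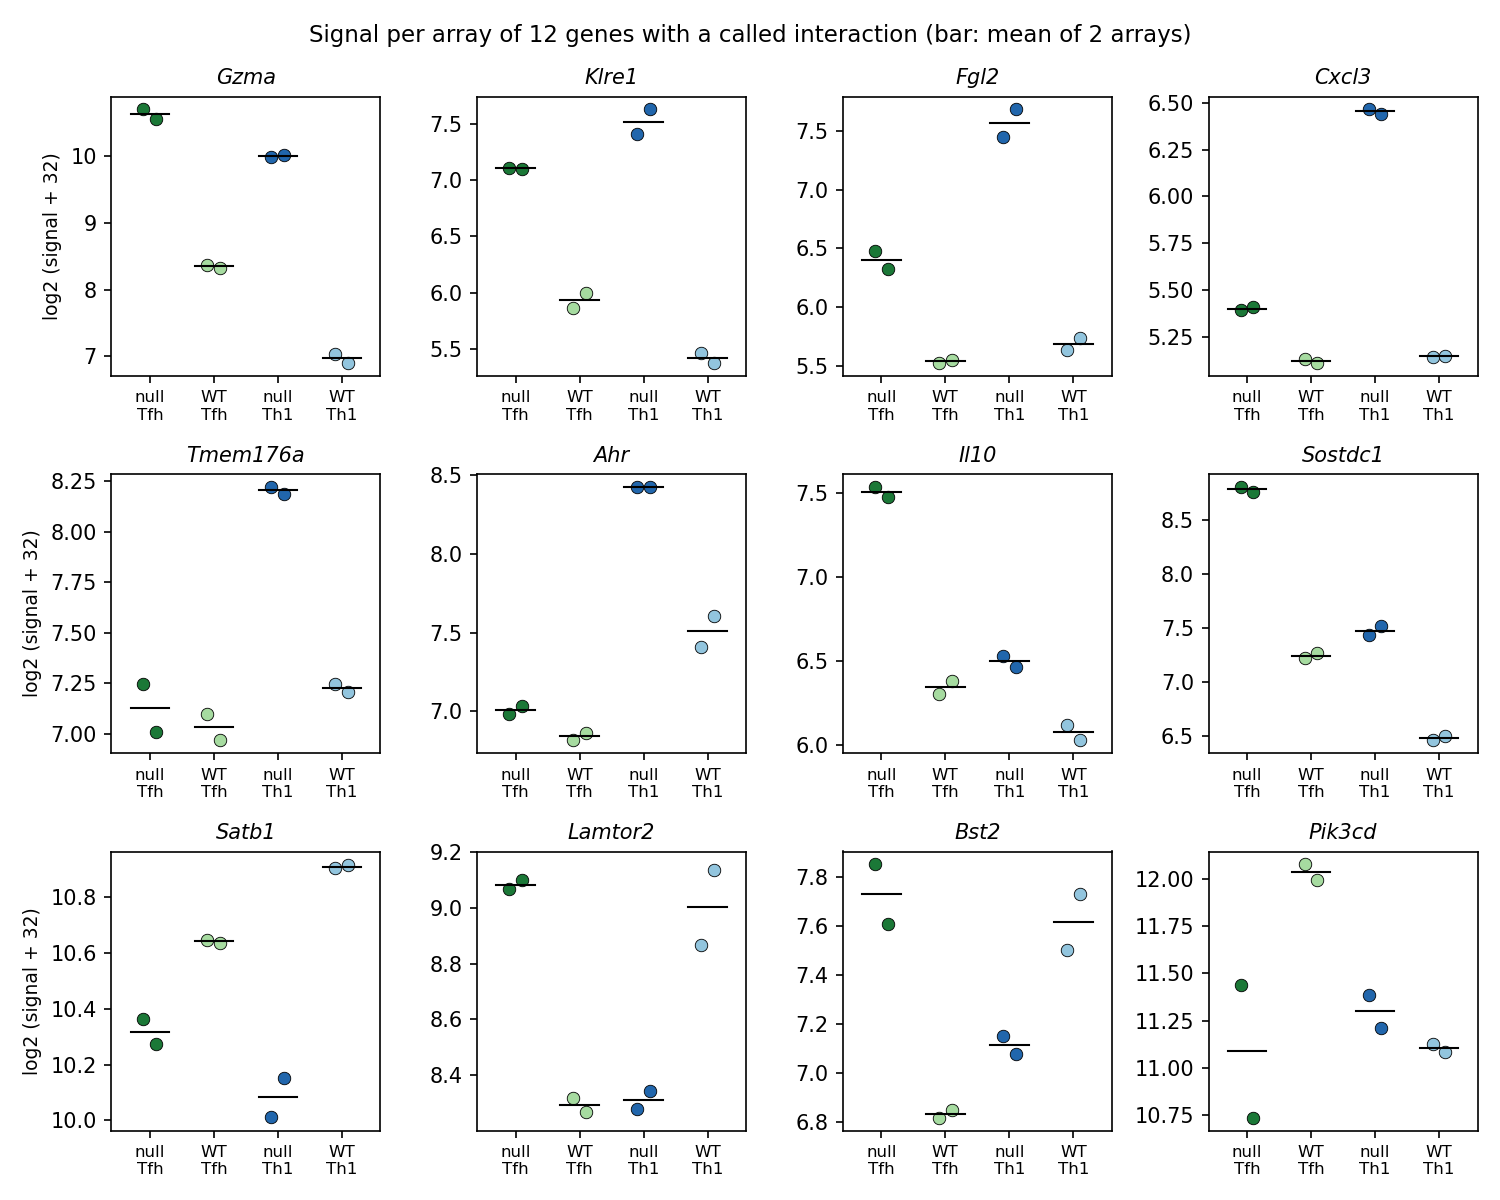
Signal on each of the 8 arrays, as log2 of signal plus 32 (vertical axes, scaled separately for each gene), for 12 genes with a called interaction. Points are arrays and bars the mean of 2 arrays: Klre1 and Fgl2 differ more between genotypes in Th1 than in Tfh cells, Il10 and Sostdc1 more in Tfh cells, Tmem176a and Ahr are highest in Rictor-null Th1 cells, Lamtor2 and Bst2 are high in Rictor-null Tfh and WT Th1 cells, and the Rictor-null Tfh replicates of Pik3cd lie far apart.

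A pair of neighbouring membrane protein genes was highest in Rictor-null Th1 cells. Tmem176a read 267 and 260 on the Rictor-null Th1 arrays, 120 and 116 on the WT Th1 arrays, 120 and 96.9 on the Rictor-null Tfh arrays, and 105 and 93.2 on the WT Tfh arrays. The Rictor-null Th1 arrays lay above the other 6, and in Tfh cells the genotypes overlapped. The interaction was -0.88 ± 0.111 (adjusted p = 0.00442), and its other measured probe sets gave -1.21 (adjusted p = 0.000468) and -0.54 (0.0611). Tmem176b, its neighbour, chosen after its values were seen, read 407 and 412 on the Rictor-null Th1 arrays, 192 and 198 on the WT Th1 arrays, 152 and 180 on the Rictor-null Tfh arrays, and 118 and 125 on the WT Tfh arrays. It rose in both lineages, by 0.96 in Th1 and 0.37 in Tfh cells, with an interaction of -0.59 ± 0.0998 (adjusted p = 0.0201) that passed in 2 of 8 fits that each left out 1 array.

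The 2 genes are read in opposite directions from start sites close to each other, and their promoter windows are printed because the genes moved together. Each window runs from 250 bases before to 50 bases after a start of the gene in RefSeq (GRCm38.p6). Among the windows listed for the 2 genes, the pair with the longest overlap was taken. It lies at chr6:48841406-48841705 on the plus strand for Tmem176a and at chr6:48841325-48841624 on the minus strand for Tmem176b. Capitals mark the 219 bases that both windows share, each written 5′ to 3′ on its own strand.
Tmem176a: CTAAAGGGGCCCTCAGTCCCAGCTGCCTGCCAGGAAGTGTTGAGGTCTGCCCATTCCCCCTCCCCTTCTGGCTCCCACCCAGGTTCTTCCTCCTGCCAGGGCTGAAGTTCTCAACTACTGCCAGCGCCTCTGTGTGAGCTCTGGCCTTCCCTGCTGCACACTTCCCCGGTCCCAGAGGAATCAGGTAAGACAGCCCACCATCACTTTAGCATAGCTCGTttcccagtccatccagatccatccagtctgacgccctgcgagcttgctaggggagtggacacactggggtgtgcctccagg
Tmem176b: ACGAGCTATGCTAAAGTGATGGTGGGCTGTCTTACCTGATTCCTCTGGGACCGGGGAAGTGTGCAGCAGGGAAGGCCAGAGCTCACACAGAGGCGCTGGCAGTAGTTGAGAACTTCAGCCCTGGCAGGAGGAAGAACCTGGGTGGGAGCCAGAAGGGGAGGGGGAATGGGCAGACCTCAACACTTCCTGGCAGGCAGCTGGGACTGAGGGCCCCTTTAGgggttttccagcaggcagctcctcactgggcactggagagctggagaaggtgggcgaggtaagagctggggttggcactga

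Ahr, the aryl hydrocarbon receptor, a ligand-activated transcription factor, passed in Th1 cells alone, as Tmem176a did, and was chosen after its values were seen. It read 311 and 312 on the Rictor-null Th1 arrays, 138 and 163 on the WT Th1 arrays, and 80.6 to 99.1 on the 4 Tfh arrays. Th1 cells of either genotype lay above Tfh cells, and the Rictor-null Th1 arrays lay highest. Its interaction was -0.75 ± 0.0995 (adjusted p = 0.00564) and passed in 6 of 8 fits that each left out 1 array. Itgb1, the integrin beta1 chain, was 0.44 higher in Rictor-null Th1 cells (interaction -0.50), with another probe set passing at -0.47. The Itgb1 call ended without any array except the 2 of Rictor-null Tfh (highest adjusted p = 0.17). Med1, a Mediator subunit, had -0.80 on its brightest probe set, while its other 4 gave 0.10, -0.12, 0.13 and 0.34, so that the mean of its probe sets gave -0.07 (adjusted p = 0.577). Alcam, an adhesion molecule that binds CD6, chosen after its values were seen, had -0.77, while its other probe sets gave -0.33, 0.02, -0.08 and 0.03.

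Il17a, the type 17 cytokine, and the gamma delta receptor segment genes Trgv1 and Trgv4 also had negative interactions. Il17a read 37.4 and 43.2 on the Rictor-null Th1 arrays and 18.6 to 29.7 on the other arrays, just above the array median on those 2 arrays alone (interaction -0.55, adjusted p = 0.0209). It thus entered the test through the group in which it was high, and its call is a description. That call ended without any array except the 2 of Rictor-null Tfh (highest adjusted p = 0.129). Trgv1 read 116 and 117 on the Rictor-null Th1 arrays, 49.6 and 51.8 on the WT Th1 arrays, 40.3 and 46.3 on the Rictor-null Tfh arrays, and 35.2 and 33.6 on the WT Tfh arrays (interaction -0.67 ± 0.084, adjusted p = 0.00442). The segment genes were chosen after their values were seen, and probes of a T cell receptor segment can bind related segments. Of the markers of gamma delta and invariant T cells, 3 were summed, Cd163l1, Zbtb16 and Sox13, all above the filter. The sum leaves out the segment genes Trgv1 and Trgv4. It was 158 and 160 on the Rictor-null Th1 arrays, 230 and 235 on the WT Th1 arrays, 183 and 169 on the Rictor-null Tfh arrays, and 235 and 234 on the WT Tfh arrays. Cd163l1, a gamma delta T cell scavenger receptor and the brightest of the 3, fell in Rictor-null cells of both lineages (-0.45 in Tfh and -0.77 in Th1 cells). The other 2 did not follow it. Zbtb16 read 44.6 and 42.6 on the Rictor-null Th1 arrays, 39.3 and 37.4 on the WT Th1 arrays, and 25.7 to 27.8 on the Tfh arrays. Sox13 read 35.7 to 48.3, with genotypes that overlapped in both lineages. The part of such cells in the Trgv1, Trgv4 and Il17a values was not tested.

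Among genes that fell in Rictor-null Th1 cells and did not pass in Tfh cells, Ddit4 had the smallest p. It encodes REDD1, a stress-induced inhibitor of mTOR complex 1. Ddit4 read 159 and 158 on the WT Th1 arrays against 99.7 and 102 on the Rictor-null Th1 arrays, 100 and 92.3 on the Rictor-null Tfh arrays, and 86.4 and 86.5 on the WT Tfh arrays. The WT Th1 arrays alone were high. Its interaction of 0.63 ± 0.0798 (adjusted p = 0.00442) kept passing with each array left out. Tnfsf14, the TNF family ligand LIGHT, fell by 0.47 in Th1 cells (interaction 0.44, adjusted p = 0.0285), and Grap2, the T cell receptor adaptor GADS, fell by 0.33 (interaction 0.41, adjusted p = 0.031). Each of these calls ended without any of 7 arrays, all but Rictor-null Tfh replicate 1 (highest adjusted p = 0.197 and 0.194).

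Another 11 genes with a positive interaction passed in both lineages in the same direction, 5 having risen further in Tfh and 6 having fallen further in Th1 cells. Il10, the anti-inflammatory cytokine, read 154 and 146 on the Rictor-null Tfh arrays, 47.2 and 51.3 on the WT Tfh arrays, 60.6 and 56.4 on the Rictor-null Th1 arrays, and 37.7 and 33.3 on the WT Th1 arrays. Both Rictor-null Tfh arrays lay far above the other 6. The rise was 1.16 in Tfh and 0.42 in Th1 cells, an interaction of 0.74 ± 0.0878 (adjusted p = 0.00378).

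Sostdc1, a Tfh cell product that blocks BMP and Wnt ligands, read 418 and 404 on the Rictor-null Tfh arrays, 117 and 122 on the WT Tfh arrays, 141 and 151 on the Rictor-null Th1 arrays, and 55.9 and 58.2 on the WT Th1 arrays. Rictor-null Tfh cells were highest, and Rictor-null Th1 cells read above WT Tfh cells. Its interaction was 0.55 ± 0.0815 (adjusted p = 0.0118), with 0.58 on its other probe set. The call of Sostdc1 ended without either WT Tfh array or Rictor-null Th1 replicate 1 (highest adjusted p = 0.0917). The interferon-induced gene Ifitm1 rose by 1.83 in Tfh and 1.37 in Th1 cells (interaction 0.47, adjusted p = 0.0377). That call ended without any array except WT Th1 replicate 2 and Rictor-null Tfh replicate 1 (highest adjusted p = 0.209) and also under quantile normalization (0.0619).

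Satb1, a chromatin organiser of T cells, fell in both lineages and further in Th1 cells. It read 1286 and 1205 on the Rictor-null Tfh arrays, 1573 and 1560 on the WT Tfh arrays, 1001 and 1107 on the Rictor-null Th1 arrays, and 1885 and 1899 on the WT Th1 arrays. WT Th1 cells were highest and Rictor-null Th1 cells lowest, with no overlap. The interaction was 0.50 ± 0.0906 (adjusted p = 0.0264). Its other 4 probe sets gave 0.13, 0.84, 0.49 and 0.37, of which those of 0.84 and 0.49 passed. The Satb1 call on the brightest probe set ended without any WT array or Rictor-null Th1 replicate 1 (highest adjusted p = 0.17). Igfbp4, which encodes a binding protein of insulin-like growth factors and was chosen after its values were seen, fell by 0.61 in Tfh and by 1.18 in Th1 cells, and its call held in 2 of 8 fits that each left out 1 array. All 5 of its other probe sets were positive in the interaction, at 0.17 to 0.60.

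Genes whose effect passed in Tfh cells alone were mostly raised there, as were passing genes among all those tested (1269 rose and 259 fell in Tfh cells). Pdia3, a disulfide isomerase of the endoplasmic reticulum, read 502 and 542 on the Rictor-null Tfh arrays and 236 and 219 on the WT Tfh arrays, against 277 to 391 on the 4 Th1 arrays, where the genotypes overlapped. Its interaction was 1.18 ± 0.181 (adjusted p = 0.0136), but another probe set gave -0.09, and the call ended without either WT Tfh array or Rictor-null Th1 replicate 2 (highest adjusted p = 0.0749). Prkcq, the kinase PKC theta of T cell receptor signalling and a target of mTOR complex 2, read 1862 and 2027 on the Rictor-null Tfh arrays, 1363 and 1346 on the WT Tfh arrays, and 1480 to 1607 on the Th1 arrays (interaction 0.57 ± 0.0877, adjusted p = 0.0136). Rictor-null Tfh cells alone were set apart. The Prkcq call ended without either WT Tfh array, either Rictor-null Th1 array or WT Th1 replicate 2 (highest adjusted p = 0.0914). Ier3, an early-response gene, had 0.58, the kinase gene Pim1 0.43 with 0.29 on its other probe set, and the lymphotoxin gene Ltb, chosen after its values were seen, 0.46.

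Pik3cd, the catalytic subunit p110 delta of PI3 kinase upstream of AKT, had a large negative interaction. Its signals were 2747 and 1673 on the Rictor-null Tfh arrays, 4288 and 4045 on the WT Tfh arrays, 2644 and 2342 on the Rictor-null Th1 arrays, and 2201 and 2135 on the WT Th1 arrays. The Rictor-null Tfh replicates differed widely, and replicate 2 was the lowest array. The interaction was -1.14 ± 0.236 (adjusted p = 0.0471), and the other 3 probe sets gave 0.11, 0.15 and 0.16. The call ended without any of 6 arrays, all but those of Rictor-null Tfh (highest adjusted p = 0.218). Cab39, a cofactor of the kinase LKB1 (-1.28), Usp25, a deubiquitinase (-1.14), and Rb1cc1, an autophagy initiation factor (-1.61), had similar limits: each call ended without any of 6 arrays, and their other probe sets gave -0.05, 0.07 and 0.13.

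Genes with opposite effects in the lineages held the 5 largest positive interactions. Lamtor2, a subunit of the Ragulator complex that anchors mTOR complex 1 at lysosomes, read 505 and 516 on the Rictor-null Tfh arrays, 287 and 276 on the WT Tfh arrays, 279 and 293 on the Rictor-null Th1 arrays, and 435 and 531 on the WT Th1 arrays. Rictor-null Tfh and WT Th1 arrays were high, the other 4 low, and the genotypes did not overlap in either lineage. The interaction was 1.48 ± 0.114 (adjusted p = 0.000379), made of 0.79 in Tfh and -0.69 in Th1 cells, but the other measured probe set of Lamtor2 gave -0.04. Swi5, a homologous recombination factor with a single probe set, had the same shape, at 539 and 449, 230 and 251, 255 and 260, and 352 and 426 in the same order of groups (interaction 1.48 ± 0.137, adjusted p = 0.000801).

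Bst2, the interferon-induced antiviral protein tetherin, had a single measured probe set as well. It read 199 and 163 on the Rictor-null Tfh arrays, 80.6 and 83.2 on the WT Tfh arrays, 110 and 103 on the Rictor-null Th1 arrays, and 149 and 180 on the WT Th1 arrays. Rictor-null Tfh and WT Th1 cells were again the higher groups and overlapped each other. The interaction was 1.40 ± 0.129 (adjusted p = 0.000801). Its promoter window (RefSeq, GRCm38.p6, chr8:71537423-71537722, minus strand) is printed because Bst2 had the largest interaction in the interferon-stimulated list. Capitals mark 2 overlapping matches to GAAANNGAA, the core of the interferon-stimulated response element (ISRE).
Bst2: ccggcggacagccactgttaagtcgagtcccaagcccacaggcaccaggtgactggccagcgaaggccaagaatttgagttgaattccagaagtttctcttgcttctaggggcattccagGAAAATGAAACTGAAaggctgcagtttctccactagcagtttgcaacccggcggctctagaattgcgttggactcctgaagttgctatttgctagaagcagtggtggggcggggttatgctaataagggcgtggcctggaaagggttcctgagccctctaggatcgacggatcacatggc

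Other genes with opposite effects were Dnajc7, a co-chaperone (1.27), Clic1, a chloride channel protein (1.03), Btg2, an antiproliferative early-response gene (0.99), Tap2, a peptide transporter for MHC class I (0.96), Prmt1, an arginine methyltransferase (0.90), Ramp1, a subunit of the CGRP receptor (0.88), and Il17ra, a chain of the interleukin 17 receptor (0.59). Il17ra read 587 and 624 on the Rictor-null Tfh arrays, 490 and 493 on the WT Tfh arrays, 487 and 494 on the Rictor-null Th1 arrays, and 632 and 595 on the WT Th1 arrays. Its genotypes did not overlap in either lineage, and its other probe set passed as well (0.69). The Il17ra call ended without either WT Tfh array or Rictor-null Th1 replicate 1 (highest adjusted p = 0.0691). That of Btg2 gave 0.01 and that of Ramp1 0.04, while Dnajc7, Clic1, Tap2 and Prmt1 had a single measured probe set. Of the 29 genes with opposite effects, 14 still passed with each array left out in turn, against 4 of 23 with the same direction, 1 of 45 in Tfh alone and 4 of 39 in Th1 alone. Opposite effects add up in the interaction, and the patterns were drawn from the same arrays. These counts therefore do not rank the patterns by reliability.

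Agreement among the probe sets of a gene is given by pattern, with no test. Of the 136 called genes, 73 had a single measured probe set and 63 had several. All probe sets had the same sign for 39 of the 63 (61.9%), beside 46.0% of the 4914 genes with several probe sets among all genes tested. The share was 9 of 10 among genes with the same direction in both lineages, 16 of 22 (72.7%) among those that passed in Th1 cells alone, 7 of 15 (46.7%) among those with opposite effects and 7 of 16 (43.8%) among those that passed in Tfh cells alone. The last 2 shares lie near that of all genes. Of the 120 other probe sets of called genes, 81 (67.5%) had the sign of the brightest, beside 4925 of 8454 (58.3%) over all genes tested. Of the 81, 19 passed over all probe sets tested. Of the 39 with the opposite sign, 0 passed by limma, with or without array weights, and 6 had an unadjusted p under 0.05. Over all genes tested, 89 other probe sets passed with the same sign and 35 with the opposite sign. Each other measured probe set passed for Arrdc4, Ccr9, Il17ra and Trgv4. Ccr9 and Trgv4 among them entered the test only through Rictor-null arrays, on which they were high. Of the 12 most positive named genes, Lamtor2, Taf7, Pdia3, Btg2, Usp53 and Ramp1 had other probe sets, whose values ran from -0.13 to 0.04. Taf7, a TFIID subunit, had 1.41 on its brightest probe set and -0.13 on the other. Probe sets of a gene can bind different transcript ends, and no positions of probes were used.

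**Figure D3:**
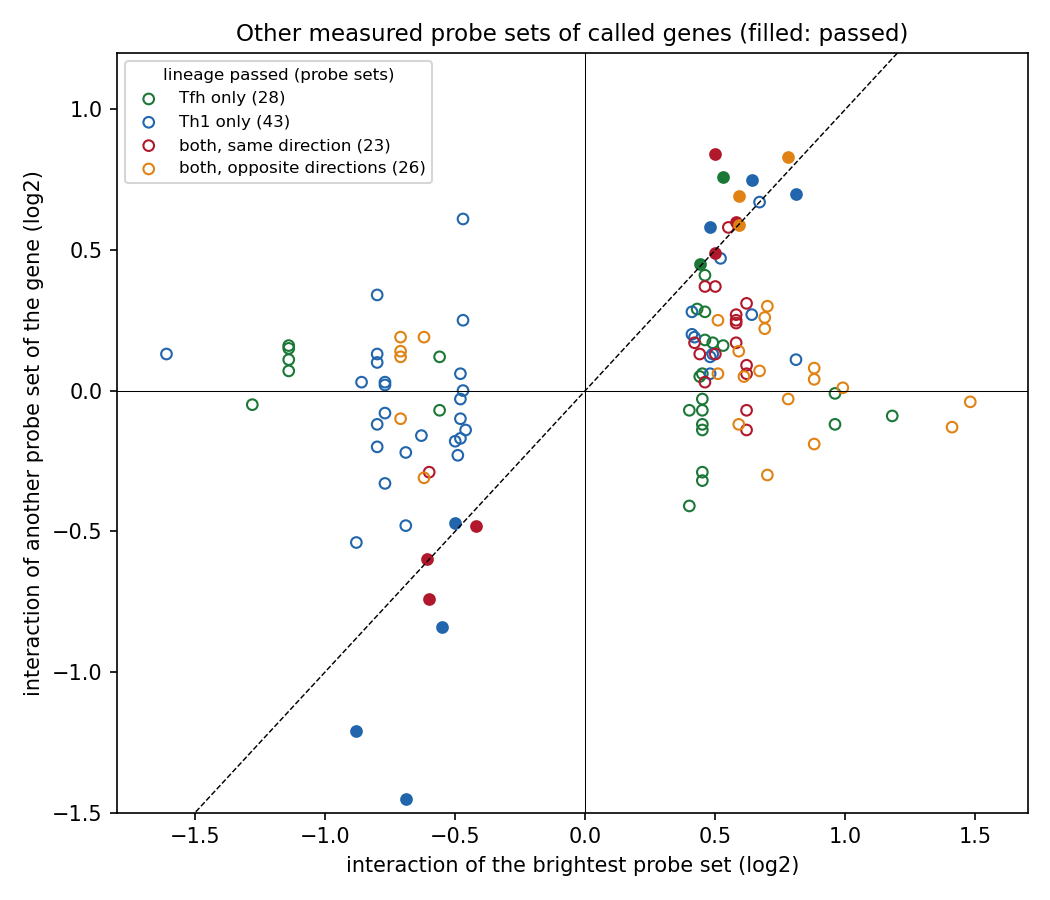
Interaction of the brightest probe set (horizontal axis) against that of each other measured probe set of the same gene (vertical axis), both log2, for 63 called genes and 120 other probe sets, coloured by the lineage in which the genotype effect passed. Filled points passed on their own, and the dashed line marks equal values: points of genes with the same direction in both lineages mostly keep the sign, and those beyond 0.9 on the right lie near 0.

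Gene lists were read against 1.21% of all genes tested. The lists were chosen with earlier results of these data known, so a share above 1.21% is a description and no sign of enrichment. Over 27 lists, 25 of 590 measured genes, each counted once, were called, and 16 lists held at least 1. Lineage and effector lists came first: the Th1 signature held 3 of 26 (Gzmb, Klrg1, S1pr5, all negative, list median -0.09), the Tfh signature 1 of 23 (Sostdc1, positive, median 0.15), cytotoxic granule genes 2 of 17 (Gzma, Gzmb, both negative, median 0.01), and NK lectin-like receptors 2 of 6 (Klre1, Klrg1, both negative, median -0.26). Chemokine receptors and homing genes held 3 of 22 (Ccr9, S1pr5, Itgb1, all negative, median -0.11). Cytokines and chemokines held 4 of 26 (Il10, Ltb and Tnfsf14 positive, Il17a negative and above the median only where it was high, median 0.06), cytokine receptors 1 of 25 (Il17ra, positive, median 0.07) and regulatory T cell markers 1 of 11 (Il10, median -0.07). Genes of several lists count in each. Klre1 and Ccr9 were also above the median only on Rictor-null arrays, where they were high.

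Signalling and stress lists held 1 or 2 called genes each, or none. Components of the mTOR and AKT pathway held 2 of 33, Prkcq positive and Pik3cd negative, with a list median of 0.07 near the 0.04 of all genes. T cell receptor signalling held 1 of 31 (Grap2, positive), T cell fate transcription factors 1 of 38 (Satb1, positive), immediate early and handling stress genes 2 of 39 (Ier3, Btg2, both positive), interferon-stimulated genes 2 of 36 (Bst2, Ifitm1, both positive, median 0), survival and death genes 1 of 21 (Pim1, positive), unfolded protein genes 2 of 26 (Pdia3, Ddit4, both positive, median 0.14) and heat shock genes 1 of 20 (Dnajc7, positive). Limma called 0 of 263 genes in the other 11 lists, of which 44 had an unadjusted p under 0.05. Array weights and the ordinary linear model called 0 of them too. These were inhibitory receptors (15 genes), costimulatory receptors (19), FOXO targets (23), proliferation (29), glycolysis (19), oxidative phosphorylation (57), sterol and fatty acid synthesis (25), ribosomal proteins (34), S100, annexin and galectin genes (17), RGS genes (18) and the Gimap family (8). Over all genes, 2145 of 11217 had an unadjusted p under 0.05.

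The regulators that define the lineages did not pass. Bcl6 read 192 and 186 on the Rictor-null Tfh arrays, 138 and 143 on the WT Tfh arrays, and 89.9 to 94.5 on the Th1 arrays, where the genotypes overlapped. It rose by 0.36 in Tfh cells, and its interaction was 0.35 ± 0.0784 (adjusted p = 0.0628). Cxcr5 had an interaction of 0.49 ± 0.121 (adjusted p = 0.0883). Without Rictor-null Tfh replicate 1 both were called (adjusted p = 0.0286 and 0.00654), a setting in which Rictor-null Tfh rests on the array that stood apart. Bcl6 has a single measured probe set, and in the fit of the mean of all measured probe sets the same values gave an adjusted p = 0.0367. The interaction was 0.06 ± 0.0797 for Tbx21, 0.03 ± 0.0811 for Ifng, 0.08 ± 0.0878 for Foxo1, 0.00 ± 0.101 for Klf2 and -0.20 ± 0.0853 for Prdm1, which encodes Blimp-1.

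Markers of other cell types were read beside these results. Of the CD8 T cell and NK cell markers, 6 of 9 passed the filter, and all 9 summed to 1847 and 1712 on the Rictor-null Tfh arrays, 1372 and 1317 on the WT Tfh arrays, 747 and 759 on the Rictor-null Th1 arrays, and 539 and 533 on the WT Th1 arrays. Most of it in Tfh cells was Eomes, a T-box factor also made by CD4 cells, whose brightest probe set gave 0.13 (adjusted p = 0.511). The other Eomes probe set was called at 0.64 (adjusted p = 0.00975 over all probe sets), as was the mean of both (0.38, adjusted p = 0.025). On brightest probe sets, Klre1 was the called member of the list. Klrk1 rose by 0.46 in Tfh and 0.28 in Th1 cells (limma adjusted p = 0.000411 and 0.00904). Its interaction was 0.18 (adjusted p = 0.248). By limma, 4 of the 6 members above the filter rose in Tfh and 2 in Th1 cells, beside 1269 and 847 of all 11217 genes. Cd8b1 read 58.3 and 62.5 on the Rictor-null Tfh arrays and 45.2 and 43.3 on the WT Tfh arrays. Cd8a read 39.1 to 52.2, close to the array medians, and Ncr1 and Klra8 were dim on all arrays. The part of such cells in the Gzma, Gzmb and Klre1 values was not tested. Of the B cell markers, 6 of 17 passed the filter, and all 17 summed to 2317 to 3329, most of it Ighm. Ighm was called (0.59, adjusted p = 0.0169), with 0.59 on another probe set that passed and 0.14 and -0.12 on the others. Measured B cell markers went different ways. Cd22 fell in Th1 cells (-0.57, limma adjusted p = 0.00165). Cd74 rose by 0.23 in Tfh and 0.41 in Th1 cells (limma adjusted p = 0.0474 and 0.00302). Their interactions did not pass (0.44, adjusted p = 0.116, and -0.18, adjusted p = 0.341). Cd79a, Ms4a1 and Pax5 were below the filter. Plasma cell markers (98 to 123, 2 of 4), myeloid markers (965 to 1172, 7 of 19) and erythroid and platelet markers (357 to 498, 3 of 9) are given as summed signals, and Car2 of the last list was called (-0.48, adjusted p = 0.0446). The brightest myeloid marker was Cst3, the protease inhibitor cystatin C, which read 494 to 738 and rose by 0.30 in Th1 cells (adjusted p = 0.0464; interaction -0.04). Cd68, a macrophage lysosomal protein, rose by 0.38 in Tfh cells (adjusted p = 0.0101; interaction 0.30, adjusted p = 0.198). The part of these cells was not tested.

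Promoter windows of 300 bases were found in RefSeq for 9056 of the genes tested, 79 of the 92 with a positive and 35 of the 44 with a negative interaction. Each motif was sought on both strands, and a match is a description of letters, not a site. The AP-1 motif TGANTCA was in 6.05% of all windows, in 8 of 79 (10.1%) of the positive and in 5 of 35 (14.3%) of the negative set. The FOXO core GTAAACA was in 3.25% of all, in 6 positive (7.59%) and 2 negative (5.71%) genes. ISRE cores were in 8.34% of all, 6.33% of the positive and 8.57% of the negative set. E-boxes (CANNTG) were in 67.7%, 65.8% and 82.9%, NFAT cores (GGAAAA) in 23.6%, 20.3% and 31.4%, T-box cores (AGGTGTGA) in 1.19%, 2.53% and 2.86%, and TCF/LEF cores (CTTTGAT) in 3.04%, 2.53% and 5.71%. The window of Fgl2 (chr5:21372423-21372722, plus strand) is printed as that of a gene with a large negative interaction that holds an AP-1 match, in capitals.
Fgl2: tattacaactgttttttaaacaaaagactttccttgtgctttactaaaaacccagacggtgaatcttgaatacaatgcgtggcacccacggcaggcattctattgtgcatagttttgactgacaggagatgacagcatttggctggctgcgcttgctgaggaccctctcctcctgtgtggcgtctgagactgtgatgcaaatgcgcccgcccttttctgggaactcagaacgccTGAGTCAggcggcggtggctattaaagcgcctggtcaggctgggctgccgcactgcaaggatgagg

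The number of calls rested on single arrays. Leaving out Rictor-null Tfh replicate 1, which leaves that group to the array that stood apart, gave 1614 calls, all 136 among them. Leaving out Rictor-null Tfh replicate 2 gave 96. The count was 27 and 30 without WT Tfh replicate 1 or 2, 31 and 50 without Rictor-null Th1 replicate 1 or 2, and 77 and 60 without WT Th1 replicate 1 or 2. With each array left out in turn, 23 of the 136 genes passed every time. A fit with 1 array in a group assumes that this array varies like the other groups. Median centring over the genes tested gave 99 calls, of which 55.6% were positive, beside 67.6% of the 136. The sign was kept, wherever the gene was tested over 22 alternatives, for 133 of the 136 genes, the exceptions being Herc4, Ipcef1 and Rad23b with 1 turned sign each. Of the 45 called genes named by rule, 15 passed with each array left out. The other 30 calls ended without WT Tfh replicate 1 and, for all of them except Gzma, without other arrays too. For a single comparison of 2 arrays against 2, the smallest two-sided p of an exact permutation test is 0.333, and the tests here rest on the spread shared across genes.

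**Figure D4:**
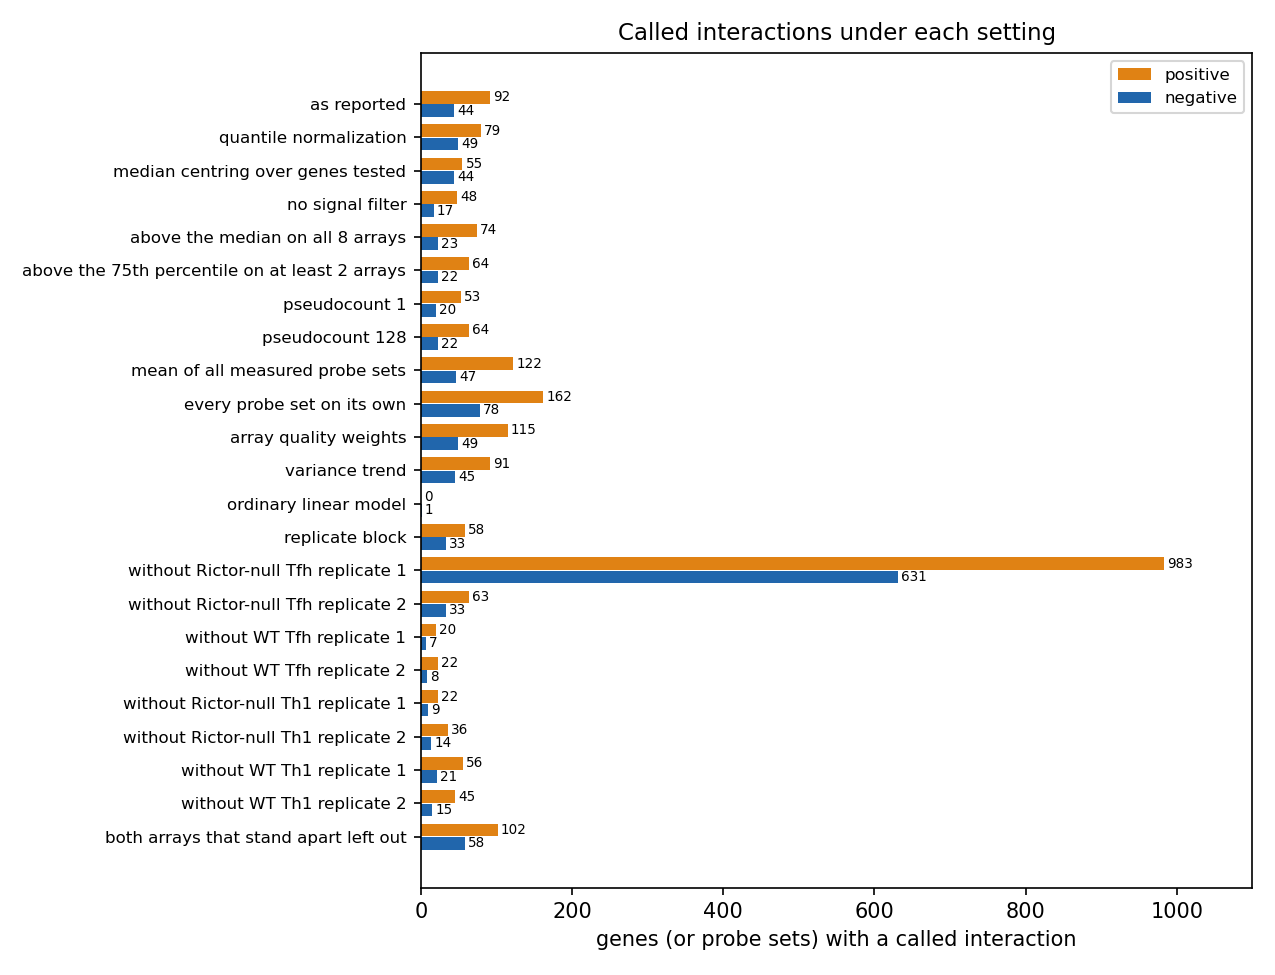
Number of genes (probe sets where each was fitted on its own) with a positive or negative called interaction (bars, horizontal axis from 0) under each setting. Counts run from 1 under the ordinary linear model to 1614 without Rictor-null Tfh replicate 1, and are 92 positive and 44 negative as reported.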

How the data were processed

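Gene expression was measured on 8 arrays in 4 groups, assigned from the sample titles. The deposited values are probe set signals, an intensity on a linear scale, per the file headers and values. The submitters' processing notes name MAS5 and RMA without version or role, and the scaling between arrays is not stated in the sources used here. Arrays have no sequencing depth, and their number limits the precision.

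Of 45037 probe sets, 34945 had 1 gene symbol, 932 several and 9160 none, and 34741 of the first were matched to RefSeq by gene ID. The analysis used log2 of the signal plus 32. A probe set was kept if it exceeded its array's median on at least 2 arrays, and the brightest stood for its gene. A model with 1 mean per group was fitted with limma 3.58.1 (R 4.3.3; residual degrees of freedom 4, prior 6.7), and p-values were adjusted over 11217 genes, or over 19671 probe sets for agreement. Fold changes are on the log2(signal + 32) scale and understate changes of dim genes. The method was tested on simulated data.

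Named genes are the 12 most positive and 12 most negative called interactions, up to 6 called genes with opposite effects, up to 3 called members per list, the 3 brightest markers of each other cell type, and a fixed set of T cell genes. RIKEN, clone, Gm and receptor segment names were left out of the first parts. The members and lists were chosen with earlier results of these data known. Some genes of the fixed set were not analysed here. Alternatives covered scaling, filter, pseudocount, probe set choice, variance model, replicate number and the arrays used. Figures were drawn with matplotlib 3.10.9.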

Additional observations from a re-analysis of the deposited data

Results flagged for a closer look

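Each of the following genes had a genotype effect that differed between Tfh and Th1 cells by the interaction test (limma, adjusted p under 0.05). The values are interactions in log2, Tfh effect minus Th1 effect. Cxcl3, Il17a, Fgl2, Klre1 and Ccr9 entered the test only through Rictor-null arrays, on which they were high, and their values are a description.

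Among effector and homing genes, Fgl2 (-1.02), Cxcl3 (-1.03), Klre1 (-0.93), Gzma (-0.75), Klrg1 (-0.62), Ccr9 (-0.61), Gzmb (-0.55), Il17a (-0.55), S1pr5 (-0.50), Itgb1 (-0.50) and the carbonic anhydrase Car2 (-0.48) were negative, as were the membrane protein genes Tmem176a (-0.88) and Myadm (-0.80). Large negative values were also given by Rb1cc1 (-1.61), Cab39 (-1.28), Pik3cd (-1.14), Usp25 (-1.14), Rufy2 (-0.86), Arid1b (-0.81) and Med1 (-0.80). In this second set every gene except Arid1b, which has a single measured probe set, has another probe set with a value between -0.12 and 0.34.

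Positive values of genes with a passing effect in the same direction, or in a single lineage, were Il10 (0.74), Ddit4 (0.63), Ier3 (0.58), Prkcq (0.57), Sostdc1 (0.55), Satb1 (0.50), Ifitm1 (0.47), Tnfsf14 (0.44), Pim1 (0.43), Grap2 (0.41), Pdia3 (1.18) and Usp53 (0.96). Genes that rose in Tfh and fell in Th1 cells were Lamtor2 (1.48), Swi5 (1.48), Taf7 (1.41), Bst2 (1.40), Dnajc7 (1.27), Clic1 (1.03), Btg2 (0.99), Tap2 (0.96), Prmt1 (0.90), Ramp1 (0.88), Snrpd3 (0.88), Il17ra (0.59) and Ighm (0.59). No group had enough arrays for a check of single deviating samples.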

How the results depend on the processing

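The count of called genes (136, of which 92 were positive and 44 negative) stayed within 1.5 times under quantile normalization, array weights, a variance trend, the mean of all measured probe sets, and without both arrays that stood apart. Median centring gave 55 positive calls. The 75th percentile filter gave 86 calls, 22 negative, and a filter on all 8 arrays gave 23 negative. No filter gave 65 (48 positive, 17 negative). A pseudocount of 1 gave 73 (53 and 20), and 1 that was 4 times larger gave 86 (22 negative). Every probe set on its own gave 240 (162 and 78). The ordinary linear model, without the spread shared across genes, called 1 (0 and 1), with 1571 at an unadjusted p under 0.05. Leaving out 1 array gave 27 to 1614 calls, 20 to 983 positive and 7 to 631 negative. The replicate block gave 91 calls, 58 positive, 87 of them shared. Replicate deviations of the groups correlated over genes at 0.276 within Tfh cells, 0.172 within Th1 cells and -0.514 to 0.00318 between lineages. These values do not decide whether arrays with the same replicate number were processed together.

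None of the 45 named genes with a call turned its sign in these alternatives. Of the 29 named genes without a call, 8 did (22 values, to 2 decimals), Ifng among them, at -0.03 under median centring. Over all named genes, called or not, 1294 values in alternatives kept the presence or absence of a call, 298 lost the call and 6 gained one. The 22 turned values are among the 1294. The cause was not tested. Detection calls and background could not be varied.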

Other observations

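Probe sets without a single gene name were fitted together with the rest. Of 3480 measured probe sets with no symbol, 52 (1.49%) had a called interaction, as had 9 of 574 (1.57%) with several symbols and 237 of 19671 (1.2%) with 1 symbol.

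Of the 136 called genes, 111 exceeded the array median on all 8 arrays and 8 on exactly 2. The Rictor-null Th1 arrays carried 5 of these 8, Cxcl3, Il17a, Trgv4, Gm4951 and Pparg, a nuclear receptor of lipid metabolism. Susd1 and the heavy chain segment Ighv14-2 exceeded it on the Rictor-null Tfh arrays and Arhgap29 on the WT Th1 arrays.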
